A study of Homo sapiens and Mus musculus with 24 samples.

Results

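Irradiation with UV forms covalent bonds between RNA and the proteins bound to it. In phenol extraction an RNA crosslinked to protein is drawn out of the aqueous phase, so that its recovery falls, while RNA free of crosslinks stays in it. Sequencing of the aqueous RNA (UPA-seq) therefore reads each transcript's level in that phase relative to the other transcripts. From qPCR and northern blots, the paper also proposes that UV-induced bonds interfere with reverse transcription. A fall in counts can thus hold both lower recovery and less reverse transcription. The counts cannot separate these, and the share of each was not tested. The question addressed here was which genes responded differently to UV in a mouse neuroblastoma line, Neuro2a, and in a primary culture of mouse hippocampal neurons (HippCulture), once the overall difference in the size of the effect was allowed for.

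The comparison used all 12 mouse samples of the 24 in the series. These were 3 nonirradiated and 3 UV-irradiated samples of Neuro2a, and 3 nonirradiated and 3 UV-irradiated samples of HippCulture, prepared from E16.5 embryos of C57/BL6NCr mice. The hippocampal cells had been treated with a drug against dividing cells to remove glia. By the labels the groups within a cell type differ in irradiation alone, and the cell types differ in origin, growth and division together. In both cell types the medium was exchanged for an ice-cold salt solution for irradiation, and ribosomal RNA was removed before library construction. Replicates are separate samples by their labels, and the paper calls them biological triplicates. Nothing says whether they came from separate cultures, so that p-values measure the spread between these samples only. Genes were tested when their mean was at least 0.5 CPM (counts scaled to the library total) in the nonirradiated samples of both cell types, which left 14973 of 53715.

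The libraries held 6910907 to 9163323 counts on genes. The cell types differed in their markers. Hand2, Phox2a and Gata2, transcription factors of sympathetic neuroblasts, averaged 83.8, 20.1 and 48.2 normalised CPM in nonirradiated Neuro2a and at most 0.131 in nonirradiated HippCulture. Neurod6, a transcription factor of forebrain excitatory neurons, averaged 131 in HippCulture and 0.169 in Neuro2a. Of 11 general neuron markers 6 were under 10 counts in Neuro2a, among them Gad2, and of 12 sympathoadrenal markers also 6. Mycn, one of these, went the other way, at 0.573 in nonirradiated Neuro2a and 39.4 in HippCulture. Glial RNA was present in the culture. The summed level of 10 astrocyte markers was 1126 to 1167 in nonirradiated and 1310 to 1334 in irradiated HippCulture, against 47.7 to 76.3 and 94.4 to 158 in Neuro2a, where Aldoc, also a glycolytic enzyme, made up most of it and Gjb6 was at 0. Of the 8 microglial markers 1 reached 10 counts in every HippCulture library, and their sum was at most 8.98. In bulk RNA, fewer cells of a type and less RNA per cell cannot be told apart, and the part of glial cells in the results was not tested.

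UV changed a large part of the genes tested in both cell types, mostly in the same direction and further in Neuro2a. For long noncoding RNAs the paper already describes more negative fold changes in Neuro2a and a milder fall in HippCulture. In Neuro2a 4660 genes rose (31.1% of those tested) and 5531 fell (36.9%) by edgeR's quasi-likelihood test at a Benjamini-Hochberg adjusted p under 0.05. In HippCulture 4181 rose (27.9%) and 3835 fell (25.6%). Of these, 3505 genes rose in both and 3336 fell in both. The log2 fold changes had the same sign for 84.1% of the genes tested and were larger in Neuro2a for 77.1%. Across genes their Pearson's r was 0.804 and Spearman's rho 0.841, given as a description because genes are not independent replicates. The 2 cell types share no control library. The SD of the log2 fold changes over genes was 1.450 in Neuro2a and 0.795 in HippCulture, and the ratio of the SDs, the slope of 1.823, was taken as the overall difference in size. It ranged from 1.586 to 1.945 when 1 library was left out.

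**Figure D1:**
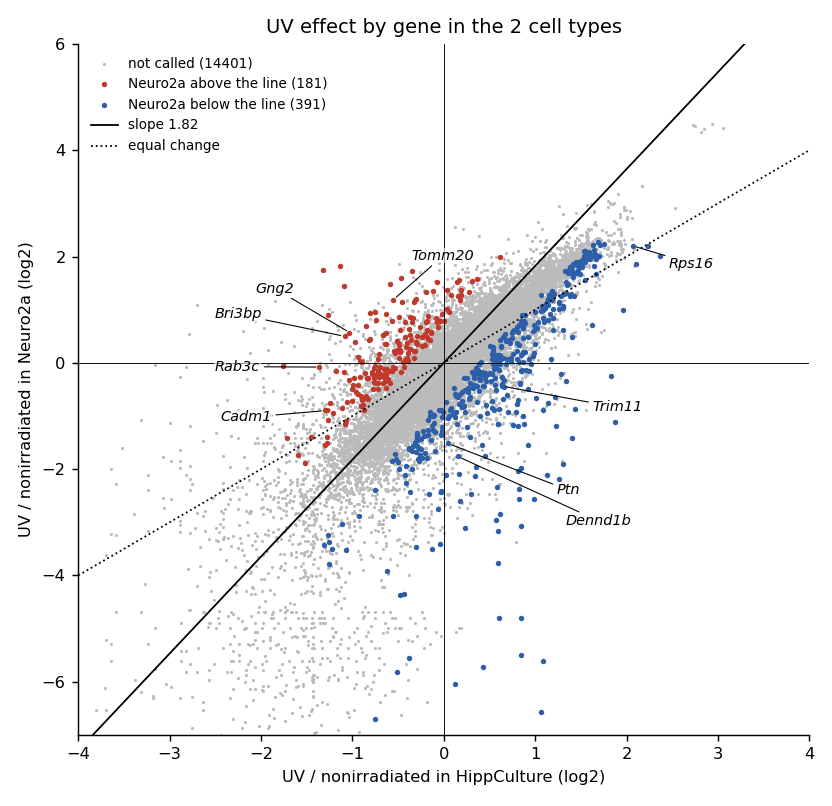
Each point is 1 of the 14973 genes tested, with its UV effect (log2 of UV over nonirradiated) in HippCulture on the x axis and in Neuro2a on the y axis. The solid line is the slope of 1.82, the dotted line equal change, and red and blue points are the 181 genes above and the 391 below the solid line at an adjusted p under 0.05. Most points lie along the solid line, named genes off it, and 36 genes fall outside the axes.

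The difference between the UV effects, that of Neuro2a minus that of HippCulture, passed the test for 3669 genes, positive for 1259 (8.41%) and negative for 2410 (16.1%). The scaled difference, in which the HippCulture log2 fold change was first multiplied by the slope, passed for 572. Of these, 385 had been called in the plain difference with the same sign. The scaled difference was positive for 181 genes (1.21%) and negative for 391 (2.61%). A positive value means that the gene read lower after UV in HippCulture, or higher in Neuro2a, than the slope gives.

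The number of scaled calls rested on single libraries. Without HippCulture nonirradiated 1, 2 and 3 there were 93, 129 and 87 positive and 143, 219 and 185 negative calls. Without HippCulture UV 1, 2 and 3 there were 131, 92 and 101 positive and 229, 175 and 105 negative. Negative calls numbered 253 without Neuro2a nonirradiated 2 and 907 without Neuro2a UV 1. Of the 181 positive and 391 negative genes, 72 and 80 were called in all 12 fits without 1 library, and 38 and 77 in all fits made.

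The zero of these scales was not at the median gene. The median log2 fold change over all genes was −0.15 in Neuro2a and 0.00 in HippCulture, and the median scaled difference was −0.23. When each UV effect was centred on its median, 57.6% of the calls were positive, against 31.6% here, so that the share in each direction is set by the centring. Genes are therefore described below by their place relative to the others.

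Of the 181 genes on the positive side, 40 rose in Neuro2a and fell in HippCulture, 37 rose in Neuro2a without a call in HippCulture, 54 fell in HippCulture without a call in Neuro2a, 46 fell in both and 4 rose in both. Tomm20 (chr8:126930667-126945844, mm10), which encodes a receptor for protein import on the outer mitochondrial membrane, measured 169, 172 and 178 normalised CPM in nonirradiated and 374, 383 and 428 in irradiated Neuro2a. In HippCulture it measured 189, 200 and 204 before and 133, 128 and 143 after UV. All irradiated samples were thus higher in Neuro2a and lower in HippCulture, without overlap. The log2 fold changes were 1.19 ± 0.09 (SE) and −0.55 ± 0.09, and the scaled difference was 2.20 ± 0.18 (adjusted p = 4.11e-07, edgeR quasi-likelihood test, n = 3 per group).

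Gng2 (chr14:19872559-19977627), a gamma subunit of heterotrimeric G proteins, was at 37.3, 43.4 and 44.7 in nonirradiated and 62.5, 57.5 and 65.9 in irradiated Neuro2a. Its level in HippCulture was far higher, at 635, 630 and 652, and fell with UV to 324, 291 and 320. The scaled difference was 2.45 ± 0.20 (adjusted p = 3.19e-07, edgeR). Annotated exons of other genes cover 20.4% of its exon bases. Eny2 (chr15:44428092-44438256), a subunit of the SAGA and mRNA export complexes, went from 39.6, 43.1 and 43.4 to 89.1, 71.1 and 79.1 in Neuro2a and from 35.1, 31.7 and 31.6 to 22.7, 21.3 and 19.6 in HippCulture. Nonirradiated levels of Eny2 were similar in the 2 cell types, whereas those of Gng2 were not.

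Eif1ax, an initiation factor for start codon scanning, was at 174, 162 and 164 in nonirradiated and 322, 267 and 270 in irradiated Neuro2a. In HippCulture it was at 179, 160 and 178 and fell to 127, 102 and 119. As with Tomm20 and Eny2, the groups moved apart from like starting levels. The remaining members of the 8 with the largest positive scaled difference were Bri3bp (2.49), the vesicle GTPase Rab3c (2.40), the ubiquitin-conjugating enzyme of the endoplasmic reticulum Ube2j1 (1.92) and the Ras-like GTPase Rala (1.77). Of these, Rab3c did not pass in Neuro2a, where its log2 fold change was −0.08, and fell by 1.36 on the log2 scale in HippCulture. All 8 passed the scaled test in each of the 12 fits that left out a library.

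**Figure D2:**
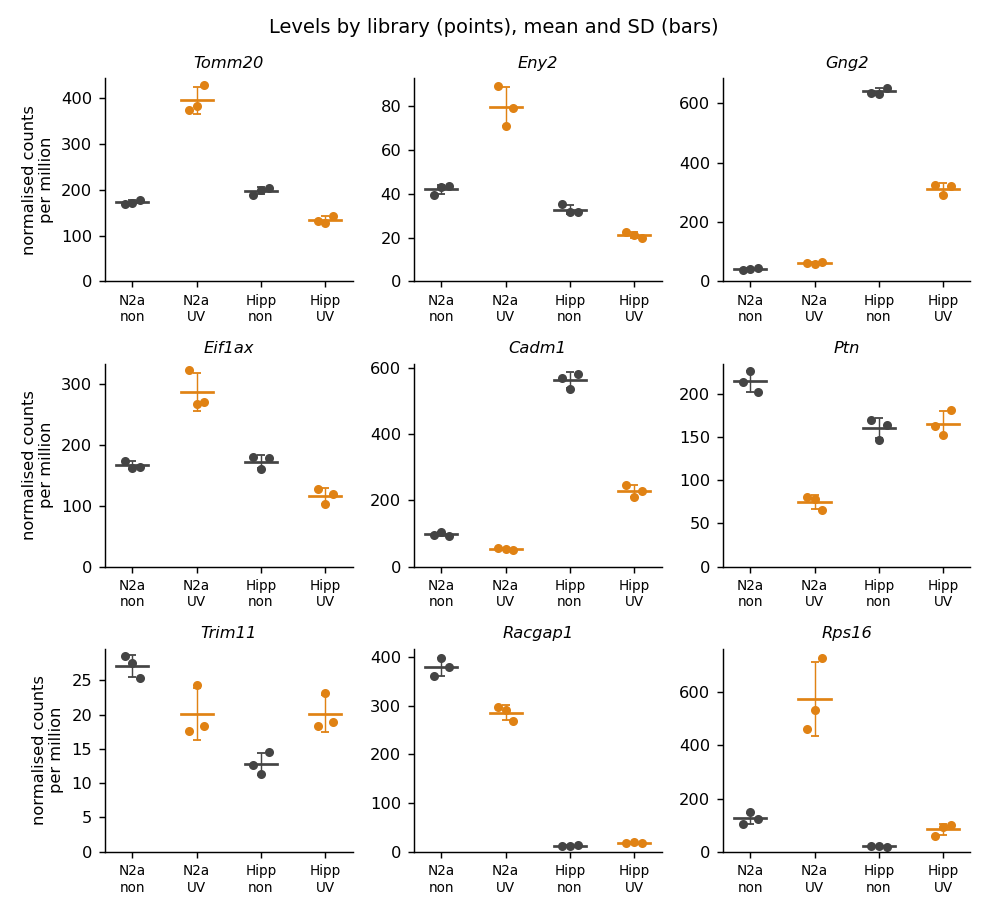
Normalised CPM (y axes, from 0) of 9 genes in each library of Neuro2a (N2a) and HippCulture (Hipp), nonirradiated (non, grey) and UV (orange). Points are libraries, lines the mean and bars the SD of 3. Tomm20, Eny2, Gng2 and Eif1ax rise in Neuro2a and fall in HippCulture, Cadm1 falls further in HippCulture, and Ptn falls in Neuro2a and overlaps between groups in HippCulture.

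Of the 391 genes on the negative side, 131 rose in both cell types, 41 fell in both, 53 fell in Neuro2a and rose in HippCulture, 83 fell in Neuro2a without a call in HippCulture and 83 rose in HippCulture without a call in Neuro2a. Ptn (chr6:36714929-36810220), which encodes the secreted growth factor pleiotrophin, was at 214, 227 and 202 in nonirradiated and 80.3, 78.6 and 65.9 in irradiated Neuro2a. In HippCulture it was at 170, 147 and 164 before and 163, 152 and 181 after UV. The Neuro2a groups did not overlap and the HippCulture groups did. The log2 fold changes were −1.52 ± 0.10 and 0.05 ± 0.10, and the scaled difference was −1.60 ± 0.21 (adjusted p = 0.000116, edgeR).

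Dennd1b, which encodes an exchange factor for Rab GTPases, showed the most negative scaled difference, −2.03 ± 0.29 (adjusted p = 0.000327, edgeR). It fell from 33.2, 33.1 and 36.0 to 8.39, 10.3 and 11.7 in Neuro2a, while HippCulture samples read 20.1, 16.9 and 19.1 before and 17.3, 25.2 and 20.4 after UV. Adarb2, a member of the RNA-editing deaminase family, fell by 2.42 in Neuro2a and by 0.37 in HippCulture on the log2 scale. Its counts in irradiated Neuro2a were low, at 14, 15 and 5. Atf5, a transcription factor of the stress response, and Fbln2, an extracellular matrix protein, did not pass in Neuro2a (both 0.02) and rose in HippCulture by 0.87 and 0.83.

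The other 3 of the 8 most negative were Trim11 (−1.60), the ribosomal protein gene Rps16 (−1.57) and the transporter-like Mfsd4a (−1.56). Mfsd4a shares 23.9% of its exon bases with other genes and held only 6, 7 and 5 counts in irradiated Neuro2a. Rps16 rose in both cell types, by 2.20 in Neuro2a and 2.07 in HippCulture, so that it is placed here because its rise in HippCulture was as large as in Neuro2a. Fits without 1 library kept the scaled call of Rps16 in 7 of 12, that of Mfsd4a in 6 and that of Fbln2 in 9. The others kept it in all 12.

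One class does not use the slope, namely genes called in both cell types with opposite signs. There were 100, of which 41 (0.274%) rose in Neuro2a and fell in HippCulture and 59 (0.394%) fell in Neuro2a and rose in HippCulture. At a level of at least 10 CPM in both, with a gene symbol, they numbered 26 and 15. With median centring they numbered 63 and 39, and with DESeq2's size factors 63 and 43, but with library sizes alone 1 and 28, so that both the size of the classes and the more common direction depend on the scaling. With library sizes alone 1 of the 6 genes named for the first direction, Tomm20 (0.02), still had a positive value in Neuro2a, and 2 of the 6 named for the second, Trim11 (0.08) and Racgap1 (0.00), had no negative value in HippCulture. These genes are thus opposite in direction relative to the other genes under TMM scaling.

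Besides Tomm20, Eny2, Gng2 and Eif1ax, the genes of at least 10 CPM ranked highest by the smaller of their log2 changes were Sub1, a transcriptional coactivator that binds single-stranded DNA, and Arpp19, an inhibitor of the phosphatase PP2A. Sub1 was at 104, 104 and 108 before and 167, 137 and 152 after UV in Neuro2a, and at 170, 151 and 167 before and 112, 84.1 and 110 after UV in HippCulture. Arpp19 rose by 0.52 in Neuro2a and fell by 0.66 in HippCulture on the log2 scale. Bri3bp, Rala and Ube2j1 also belong to this class. Neither Sub1 nor Arpp19 overlapped between irradiated and nonirradiated samples in either cell type.

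By the same measure the second direction was led by Trim11, a ubiquitin ligase, Tapbp, a chaperone of antigen loading, Rab40c, Racgap1, which organises the midzone in cytokinesis, the membrane protein Tspan7 and Gpatch1. Trim11 was at 28.5, 27.6 and 25.4 before and 17.6, 24.4 and 18.3 after UV in Neuro2a, and at 12.6, 11.4 and 14.5 before and 18.4, 23.2 and 18.9 after UV in HippCulture. Racgap1 was at 361, 398 and 380 and fell to 298, 291 and 268 in Neuro2a, and rose from a mean of 12.5 to 17.5, 20.9 and 17.3 in HippCulture. These changes were small, with log2 sizes of 0.37 to 0.74, although no pair of groups overlapped. Annotated exons of other genes cover 22% of the exon bases of Tapbp.

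Against the overall difference in size, 10 genes changed in the same direction in both cell types and significantly more in HippCulture. They were 7 that fell (0.0468%) and 3 that rose (0.02%). The 6 largest that fell were Ubfd1, Tomm70a, Ralgps2, Iws1, Rnmt and Cadm1. Cadm1, a synaptic cell adhesion molecule, was at 95.9, 106 and 93.3 before and 55.3, 51.8 and 51.3 after UV in Neuro2a, and at 570, 537 and 583 before and 246, 210 and 228 after UV in HippCulture. The log2 fold changes were −0.90 ± 0.10 and −1.30 ± 0.09, with a difference of 0.41 ± 0.13 (adjusted p = 0.0309, edgeR). That difference passed in 5 of the 12 fits without 1 library.

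Tomm70a, like Tomm20 a receptor of the mitochondrial import machinery, fell by 0.23 in Neuro2a and by 0.76 in HippCulture, and Rnmt, which methylates the mRNA cap, fell by 0.24 and by 0.67. The difference passed in 5 of 12 fits without 1 library for Rnmt and in 4 for Iws1. Among the genes that rose, Ube2m, the conjugating enzyme for NEDD8, was the only one of at least 10 CPM in both with a symbol, at 0.34 in Neuro2a and 0.82 in HippCulture. The count of 7 was between 2 and 12 when 1 library was left out.

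The mRNAs in these classes differed in length. The longest annotated 3′ UTR had a median of 1382 bases over the 12065 mRNAs tested. It was 3132 bases for the 170 mRNAs with a positive scaled difference and 3127 for the 37 that rose in Neuro2a and fell in HippCulture, but 1060 for the 366 with a negative one and 1035 for the 53 that fell in Neuro2a and rose in HippCulture. The median ORF was 993 bases and 684 bases in the first and second of these classes, against 1422 over all. Both positive classes thus had a longer median 3′ UTR and a shorter median ORF than all mRNAs. The long 3′ UTR was not particular to them. It had a median of 2766 bases in the 3017 mRNAs that fell in HippCulture, as most positive genes did, and 666 in the 3779 that rose there. The median ORF of those that fell was 1845 bases. Tomm20, Eny2, Gng2 and Eif1ax have 3′ UTRs of 4351, 2571, 3251 and 4518 bases. Levels differed too, with a median of 33.2 CPM in Neuro2a and 59.5 in HippCulture for the positive class, against 18.6 and 19.1 over all mRNAs. The part of level in this pattern was not tested. Over the 6659 mRNAs of at least 10 CPM in both, the median 3′ UTR was 3252 bases in the positive class and 1631 in all, and the median levels were 40.8 and 64.8 CPM against 35.3 and 36.6.

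Over the same 6659 mRNAs, the log2 fold change with UV was lower the longer the 3′ UTR in both cell types. The median log2 fold change went from 0.95 in the quintile of the shortest 3′ UTRs to −1.01 in that of the longest in Neuro2a, and from 0.68 to −0.57 in HippCulture. By ORF length it went from 0.89 to −0.71 and from 0.53 to −0.29. For 3′ UTR length the paper already reports a mild rank correlation with the fall in every cell type it studied, and for the ORF no strong one. Its measure was a correlation over genes, not medians of quintiles. In the longest 3′ UTR quintile 71 mRNAs (5.33%) had a positive and 20 (1.5%) a negative scaled difference, and in the shortest 5 (0.375%) and 79 (5.93%). The medians of the scaled difference in these quintiles, 0.02 and −0.39, depended on the slope: with the least squares slope of 1.466 they were −0.18 and −0.12. The positive class had a median 3′ UTR of at least 2460 bases under every alternative tried. The negative class did not stay short, at 1860 bases with the least squares slope.

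**Figure D3:**
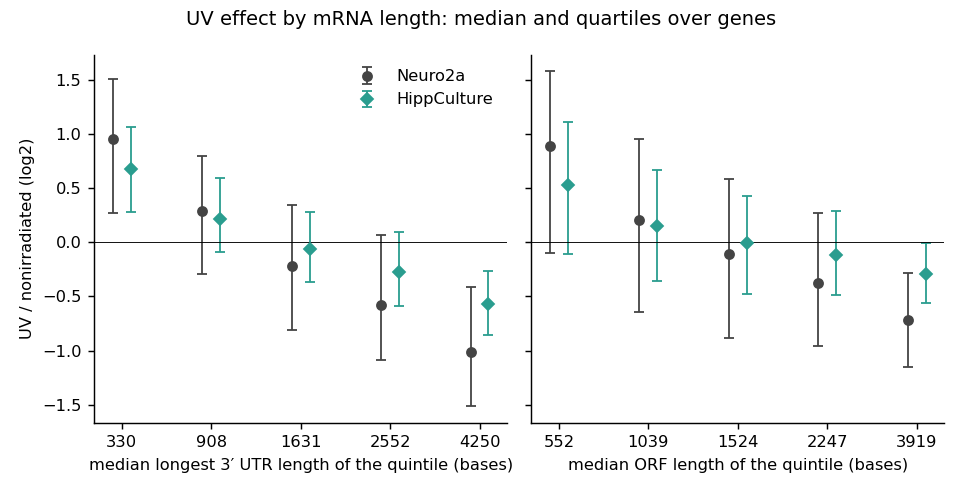
Median UV effect (log2 of UV over nonirradiated, y axis) of 6659 mRNAs in quintiles of the longest annotated 3′ UTR (left) and of the ORF (right), with the median length of each quintile on the x axis. Points are medians and bars the quartiles over genes. Both cell types decline with length, Neuro2a more steeply, from 0.95 to −1.01 over 3′ UTR quintiles against 0.68 to −0.57 in HippCulture.

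Gene groups were read against the shares over all genes, of which 31.1% rose and 36.9% fell in Neuro2a, 27.9% rose and 25.6% fell in HippCulture, 8.41% had a positive and 16.1% a negative difference, and 1.21% had a positive and 2.61% a negative scaled difference. The proteins of translation and respiration were the largest groups that rose. All 82 cytosolic ribosomal protein mRNAs tested rose in both cell types, with medians of 2.03 in Neuro2a and 1.43 in HippCulture on the log2 scale. The difference was positive for 74 of them (90.2%, against 8.41% of all genes). After scaling 1 was positive, Rpl22, and 13 (15.9%) were negative, against 2.61% of all. With median centring 2 were negative and 1 positive. With library sizes alone, where the median over all genes was −1.318 in Neuro2a and −0.563 in HippCulture, the median difference of ribosomal proteins was −0.01, against 0.59 here, and that of the respiratory chain was −0.12, against 0.49. Ribosomal protein genes and histones have near-identical copies, so that their single values are uncertain.

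Rpl22, which encodes a protein of the large ribosomal subunit, rose from 407, 472 and 444 to 1448, 1811 and 2022 in Neuro2a and from 106, 127 and 109 to 167, 176 and 182 in HippCulture. Its scaled difference of 0.87 passed narrowly (adjusted p = 0.0496, edgeR) and in 2 of 12 fits without 1 library. Of 79 nuclear-encoded subunits of the respiratory chain, 78 rose in Neuro2a and 77 in HippCulture (98.7% and 97.5%), with medians of 1.81 and 1.34. The scaled difference was negative for 13, lowest in Ndufs5 (−0.97). With median centring 2 of these subunits were negative, with DESeq2's size factors 2 and with library sizes alone 1. Of the 13 mRNAs of the mitochondrial genome 7 met the level for testing, and 6 of these share exon bases with another gene. All 7 rose in both, with medians of 1.76 and 1.40, and none passed in the plain difference. By value mt-Nd4 (1.31 and 1.34), mt-Nd5 (0.62 and 0.98) and mt-Nd6 (0.81 and 1.09) were at least as high in HippCulture, and mt-Nd1, mt-Nd4 and mt-Nd5 were negative in the scaled difference, in 8, 7 and 10 of 12 fits without 1 library. With median centring 1 of the 7 was negative in the scaled difference, and with library sizes alone 3.

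The 78 mitochondrial ribosomal proteins had medians of 1.54 and 1.05. In the scaled difference 5 were positive and 4 negative (6.41% and 5.13%), and 2 fell in HippCulture. Of these, Mrpl1 had the highest scaled difference, rising by 0.87 in Neuro2a and falling by 0.37 in HippCulture. Replication-dependent histones, whose mRNAs lack a poly(A) tail, rose in 52 of 55 in each cell type (94.5%), with medians of 2.15 and 1.79, and 4 (7.27%) were negative after scaling. With median centring 1 histone was negative after scaling, and with library sizes alone 6 were. With library sizes alone the order of the medians turned for histones, at 0.98 and 1.24, the mitochondrial genome, at 0.59 and 0.85, and the proteasome, at 0.12 and 0.39. Proteasome subunits (36, medians 1.29 and 0.94) held no scaled call. Small structured RNAs such as 7SK and the RNA of RNase P rose in 14 of 14 in both cell types, with medians of 2.52 and 1.92. These 14 include the U3 gene Rnu3a under 2 identifiers of 1 locus.

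RNA-binding proteins were among the groups that fell more in Neuro2a. Of 14 SR splicing factors 12 fell in Neuro2a and 11 in HippCulture (85.7% and 78.6%), with medians of −0.96 and −0.37, and the difference was negative for 9 (64.3%) and positive for 1. Hnrnpl, a splicing regulator, was at 132, 122 and 113 before and 35.3, 31.0 and 25.1 after UV in Neuro2a, and at a mean of 126 ± 2.83 (SD, n = 3) before and 99.9, 97.4 and 99.8 after UV in HippCulture. From like starting levels it fell by 2.00 and by 0.35 on the log2 scale, and its scaled difference of −1.36 ± 0.21 was the only scaled call among 29 hnRNP genes, or 3.45% of them (adjusted p = 0.000646, edgeR).

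In contrast, Srsf7 (0.02 in Neuro2a, not called, and −0.45 in HippCulture) and Nudt21, which positions 3′ end cleavage, lay on the positive side, Srsf7 in 4 and Nudt21 in 12 of 12 fits without 1 library. Nudt21 was at 110 in each nonirradiated and at 140, 142 and 146 in irradiated Neuro2a, and fell in HippCulture from 81.6, 73.8 and 78.0 to 61.0, 54.3 and 60.4. Chromatin regulators with long ORFs fell in 37 of 39 in Neuro2a and in 24 in HippCulture (94.9% and 61.5%), the difference being negative for 23 (59%). After scaling 1 was called (2.56%).

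Long noncoding RNAs with known functions showed the larger effect in Neuro2a, and most of it was taken up by the slope. All 7 on the list fell in both cell types, with medians of −2.14 and −1.16, and the difference was negative for 6. The paper already reports that reads of such RNAs fell with UV in each cell type it studied. Malat1 fell by 2.95 in Neuro2a and by 1.21 in HippCulture, and its scaled difference of −0.73 did not pass (adjusted p = 0.22, edgeR). Miat, a nuclear RNA of neurons, went from 1950, 2381 and 2874 to 200, 226 and 244 in Neuro2a and from 343, 333 and 322 to 163, 108 and 132 in HippCulture. Its scaled difference of −1.05 passed narrowly (adjusted p = 0.0497, edgeR), and it passed in 3 of 12 fits without 1 library. Exons of other genes cover 30.4% of its exon bases. Small nucleolar and Cajal body RNAs rose in 36 of 58 in Neuro2a and in 19 in HippCulture (62.1% and 32.8%, the latter near the 27.9% over all genes), and 1 in each direction was called after scaling (1.72%), as over all genes. One was Scarna9, which fell in Neuro2a and rose in HippCulture on 3 to 34 counts a library.

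Neuronal genes did not move as a block. Of 37 genes of synaptic vesicles 20 fell in Neuro2a and 23 in HippCulture (54.1% and 62.2%), with medians of −0.43 in both. The medians were −0.28 and −0.42 with median centring and −1.57 and −0.99 with library sizes alone, so that their equality depends on the scaling. The scaled difference was positive for 2 of them, Rab3c and Erc2, a scaffold of the active zone (1.22), and negative for none. Of 35 genes of neuronal adhesion and guidance 26 fell in Neuro2a and 21 in HippCulture (74.3% and 60%), with medians of −1.002 and −0.33, and the difference was negative for 16 and positive for Cadm1 alone. In the neuronal cytoskeleton Stmn2 rose in Neuro2a from 195, 259 and 240 to 661, 880 and 940 and in HippCulture from 409, 379 and 413 to 549, 583 and 587, while Dync1h1, the heavy chain of dynein, fell by 1.25 and by 0.26.

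Immediate early genes, which respond within minutes to a stimulus, gave 1 positive and 2 negative scaled calls among 25 (4% and 8%), Fosl2 (0.82), Klf10 (−0.89) and Egr1 (−2.25). Fosl2 passed in 4 and Klf10 in 3 of 12 fits without 1 library. Egr1 averaged 2.7 CPM in nonirradiated HippCulture. No scaled call was found among 18 p53 targets, 36 genes of mitosis and DNA replication, 25 heat shock and chaperonin genes, 20 aminoacyl-tRNA synthetases, 17 subunits of the vacuolar proton pump or 23 genes of cholesterol synthesis by edgeR. With 3 samples a group this shows no equality of the UV effects.

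**Figure D4:**
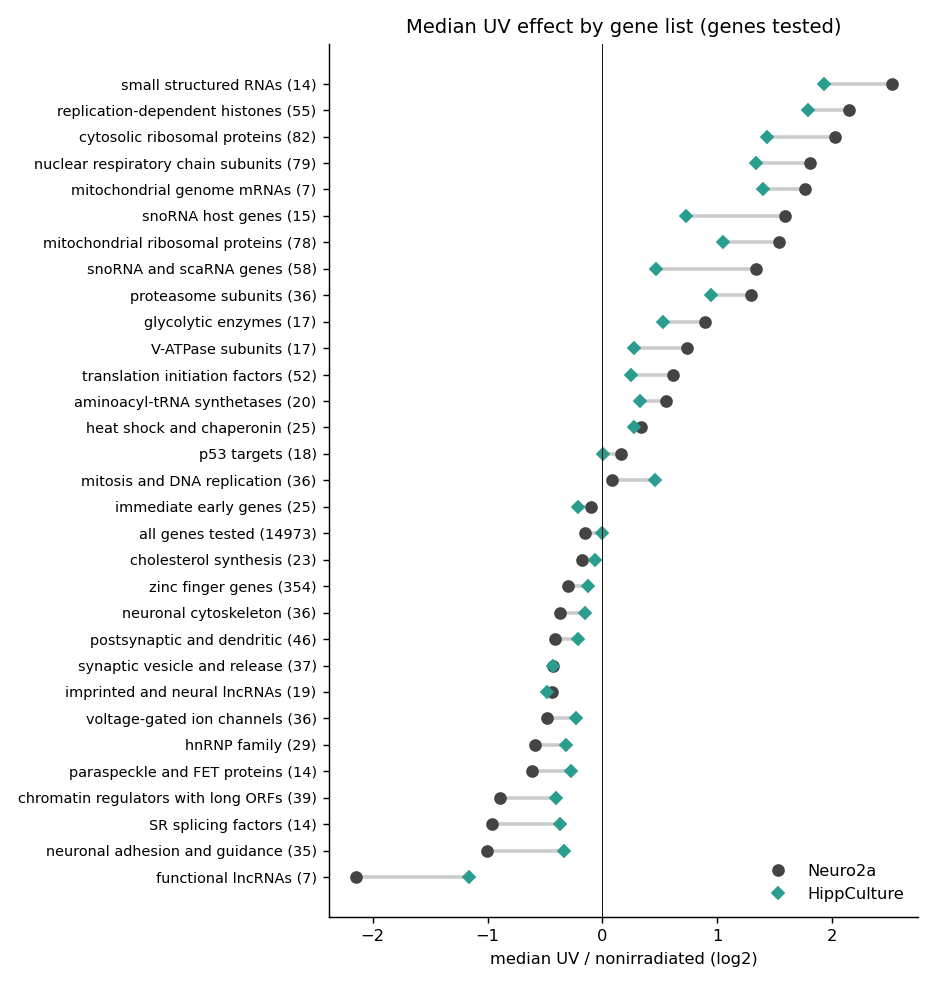
Median UV effect (log2 of UV over nonirradiated, x axis) of the genes tested in each list, with their number in parentheses, in Neuro2a (circles) and HippCulture (diamonds). Under TMM scaling ribosomal proteins lie at 2.03 against 1.43 and synaptic vesicle genes at −0.43 in both; with library sizes alone these become 0.85 against 0.86 and −1.57 against −0.99.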

How the data were processed

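The authors removed ribosomal RNA, mapped reads to mm10 with TopHat2 2.1.1 per the labels, and deposited raw counts per gene made with featureCounts 1.6.1 on GENCODE M17 exons, per the file headers. Where exons of different genes overlap, 1 read adds to all of them. No strand option is in the counting command, and the labels and methods name different library kits, so antisense or overlapping genes cannot be told apart by strand. Gene classes and lengths were taken from GENCODE M21 for 99.82% of 53715 genes.

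The 12 mouse libraries were fitted together in edgeR 4.0.16 (R 4.3.3) with TMM normalisation and 4 group means. Normalised CPM are counts scaled to the TMM-adjusted library size. The quasi-likelihood test gave the UV effect in each cell type, their difference and the scaled difference, with Benjamini-Hochberg adjustment over all genes and a threshold of 0.05. The scaled test treats the slope as known. The SE is the log2 fold change divided by the square root of F. Depth was 6910907 to 9163323 counts a library, and low counts limit the precision of low genes. The code was tested on simulated data.

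Named genes have at least 10 normalised CPM in nonirradiated samples of both cell types and a symbol that is not a placeholder: the 8 largest scaled differences in each direction, the 6 largest of each opposite-direction class and of genes changed more in HippCulture, the highest and lowest of each list (with no minimum in noncoding lists), all members of lists of at most 8, and cell type markers. Genes named outside it (Erc2, Egr1) were chosen after their values were seen. Members and lists were chosen with earlier results of these data known. Alternatives were DESeq2 1.42.0 and its size factors, library sizes alone, median centring, other filters and slopes, a replicate block, leaving out each library and, added after seeing the data, genes sharing no exon base. The human samples were not used here. Python 3.11.15 was used for summaries.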

Additional observations from a re-analysis of the deposited data

Results flagged for a closer look

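The UV effect differed between the cell types, by the edgeR test of the difference itself, for 29 of the genes named for their scaled difference, opposite directions or larger change in HippCulture. Values are Neuro2a minus HippCulture on the log2 scale. Genes named only as members of a list are left out here, although some also passed, such as Rpl22 (1.38) and Mrpl1 (1.24). Groups of 3 were not tested for outlying samples.

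Among genes on the positive side of the scaled difference, the difference was 1.59 for Bri3bp, 1.6 for Gng2, 1.28 for Rab3c, 1.74 for Tomm20, 1.56 for Eny2, 1.25 for Ube2j1, 1.35 for Eif1ax and 1.36 for Rala. It was 1.20 for Sub1 and 1.18 for Arpp19, which rose in Neuro2a and fell in HippCulture.

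Among genes on the negative side it was −1.90 for Dennd1b, −2.06 for Adarb2, −1.08 for Trim11, −1.56 for Ptn, −0.85 for Atf5, −2.44 for Mfsd4a and −0.81 for Fbln2. It was −0.88 for Tapbp, −0.86 for Rab40c, −0.97 for Racgap1, −0.92 for Tspan7 and −1.10 for Gpatch1, which fell in Neuro2a and rose in HippCulture.

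Genes that fell further in HippCulture had 0.58 for Ubfd1, 0.53 for Tomm70a, 0.53 for Ralgps2, 0.43 for Iws1, 0.43 for Rnmt and 0.41 for Cadm1. Ube2m, which rose further in HippCulture, had −0.48.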

How the results depend on the processing

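The scaled difference of the 30 genes named for their scaled difference, opposite directions or larger change in HippCulture changed sign in no setting that tested it. Their UV effects did: with library sizes alone, 5 of the 6 named genes higher in Neuro2a turned negative there and 4 of the 6 named genes higher in HippCulture were not positive there. Medians of lists did: with library sizes alone the median difference turned negative for ribosomal proteins (−0.01) and the respiratory chain (−0.12), and the median over all genes turned to 0.01 with median centring. Genes that rose and fell in Neuro2a, rose and fell in HippCulture, and had a positive and a negative difference are given in that order. With library sizes alone they numbered 918, 11384, 1211, 7811, 66 and 7143. Over the 9767 genes sharing no exon base with another gene, fewer being tested, they numbered 2742, 3574, 2459, 2393, 654 and 1350. Positive differences numbered 2105 with median centring and 766 with a filter of 1 count over the samples.

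Scaled calls, positive and negative, numbered 41 and 313 with library sizes alone, 238 and 162 with DESeq2 size factors, 234 and 172 with median centring, 269 and 182 with the DESeq2 Wald test, and 78 and 170 over genes sharing no exon base. Negative calls numbered 718 with a filter of 1 count, 238 with at least 10 counts in every sample and 866 with the major axis slope. The slope was 1.691 with DESeq2, 1.466 by least squares, 2.068 by the major axis and 1.629 over genes of at least 10 CPM.

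Genes lower in Neuro2a and higher in HippCulture numbered 28 with library sizes alone, 39 with centring, 36 with the Wald test, 33 with at least 10 counts and 31 with no shared exon. The opposite class numbered 1, 63 and 24 with library sizes alone, centring and no shared exon, and 63 with size factors. Genes that fell more in HippCulture numbered 14 with size factors, 12 with library sizes alone, 12 with centring, 15 with the Wald test, 16 with at least 10 counts and 2 with no shared exon. Those that rose more numbered 5 with library sizes alone, 6 with centring and 1 with the filter of 1 count. The cause of these shifts was not tested.

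Leaving out 1 library gave 4418 to 4699 genes higher with UV in Neuro2a, 5193 to 5554 lower in Neuro2a, 3552 to 4339 higher in HippCulture, 3307 to 4008 lower in HippCulture, 905 to 1460 positive differences, 1853 to 2484 negative differences. It gave 87 to 259 positive scaled calls, 105 to 907 negative scaled calls, 38 to 64 genes lower in Neuro2a and higher in HippCulture, 34 to 45 the reverse, 2 to 12 genes that fell more in HippCulture, 1 to 5 that rose more, and a slope of 1.586 to 1.945.

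With the replicate block, scaled calls numbered 422 and 1448, genes higher in Neuro2a and lower in HippCulture 62, and genes changed more in HippCulture 25 lower and 10 higher. Negative scaled calls then numbered 56 of 82 cytosolic ribosomal proteins, 48 of 79 respiratory chain subunits and 39 of 55 histones. They also took in 7 of 7 mitochondrial genome mRNAs and 13 of 36 proteasome subunits. Positive ones in these groups were 1, 0, 0, 0 and 1. Deviations of same-numbered samples correlated at 0.322, 0.107 and 0.16 in Neuro2a and at 0.137, 0.083 and 0.0576 in HippCulture, and not all exceeded 0.1, so that the numbers were not taken to pair the samples. Every HippCulture sample correlated best with its own number, a hint from the data, while Neuro2a nonirradiated 2 correlated best with UV 3 (0.118). The scaled test does not carry the error of the slope.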

Other observations

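Further gene groups were measured. Host genes of small nucleolar RNAs rose in 13 of 15 in Neuro2a and in 11 in HippCulture (86.7% and 73.3%, against 31.1% and 27.9% of all genes), with medians of 1.59 and 0.73, and none was called in the scaled difference. Zinc finger genes, a large family of transcription factors, fell in 143 of 354 in Neuro2a and in 90 in HippCulture, and 5 were negative after scaling. These shares of 40.4%, 25.4% and 1.41% are near or below the 36.9%, 25.6% and 2.61% over all genes. Translation initiation factors rose in 29 of 52 and in 28 (55.8% and 53.8%), with 1 positive and 2 negative scaled calls, the positive one being Eif1ax. With library sizes alone the medians of the initiation factors turned from 0.61 and 0.25 to −0.56 and −0.31.

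Postsynaptic and dendritic genes fell in 22 of 46 in Neuro2a and in 20 in HippCulture (47.8% and 43.5%, against 36.9% and 25.6% of all genes), with 2 positive and 1 negative scaled calls (4.35% and 2.17%, against 1.21% and 2.61%). Voltage-gated ion channels fell in 18 of 36 and in 16 (50% and 44.4%), with 1 scaled call in each direction (2.78%, near the shares over all genes). Glycolytic enzymes rose in 13 of 17 and in 11 (76.5% and 64.7%), with 1 positive scaled call, and their medians of 0.89 and 0.53 turned to −0.29 and −0.05 with library sizes alone. Imprinted and neural long noncoding RNAs fell in 8 of 19 and in 12 (42.1% and 63.2%), and none was called after scaling.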
